A study of Mus musculus with 6 samples.

Results

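The subunits of the mitochondrial respiratory chain were taken as the genes whose symbols begin with Ndufa, Ndufb, Ndufc, Ndufs or Ndufv and a number, are Sdha to Sdhd, or begin with Uqcr, Cox4 to Cox8 or Atp5, pseudogene symbols left out. Of 34760 probe sets on the array, 104 carried exactly 1 such symbol, and they read 81 genes of the 19937 that could be measured. Complex I supplied 35 of the genes, complex II 4, complex III 8, complex IV 17 and complex V 17. The symbol and not the measured value chose them. Another 6 probe sets matched but were annotated to several genes, so Cox7c and Ndufb4 were not analysed here.

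The respiratory chain is a series of protein complexes in the inner mitochondrial membrane. Complexes I and II pass electrons from NADH and succinate to ubiquinone, complex III passes them on to cytochrome c, and complex IV passes them to oxygen. Complexes I, III and IV pump protons while they do so, and complex V, the ATP synthase, lets the protons back to make ATP. Most subunits are encoded in the nucleus and imported, and some of the core subunits are encoded in mitochondrial DNA. Blood stem cells are known to rely little on respiration, and myeloid progenitors more.

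The arrays compared pre-granulocyte-macrophage progenitors (PreGMs) of female C57BL/6 mice, 3 labelled Cebpa flox/flox and 3 labelled Cebpa flox/flox;Mx1Cre. Both groups carried the floxed Cebpa allele and received pIC, a double-stranded RNA mimic that induces interferon, and marrow was taken on day 18. In carriers interferon turns on the Mx1 promoter and thereby Cre, in many cell types and not in PreGMs alone. Mice with Mx1Cre and no floxed allele were not analysed here. The design text gives 3 mice of each genotype, ages are not stated in the labels, and 20 ng of RNA per sample was amplified before labelling. Cebpa encodes a transcription factor needed for granulocyte-macrophage progenitors to form.

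Cebpa read 6.93, 6.71 and 6.85 log2 units in the arrays labelled flox/flox and 8.71, 9.31 and 8.98 in those labelled Mx1Cre, the opposite of what deletion would give if the probes lie in the deleted part, which was not examined. Every direction below follows the labels and would turn if they were exchanged. Kit, the receptor that the sort selected for, was bright in all 6 arrays (10.4 to 10.7 log2 units), and B cell markers were called in neither direction. Of 5 genes measured for markers that the sort excluded, Fcgr2b was 0.43 log2 units higher in the arrays labelled Mx1Cre (adjusted p = 0.0410, limma) and Fcgr3 was lower (-1.04, adjusted p = 0.00970), and Slamf1, Itga2b and Eng were not called. Of the 8 T and NK cell markers measured 3 were lower in the arrays labelled Mx1Cre, namely Gzmb (-4.45), Trat1 (-2.56) and Klrb1b (-1.63). The list mean was 7.33 to 7.60 in flox/flox and 6.07 to 6.40 in Mx1Cre. Cd3g (-0.45), Nkg7 (-0.42), Cd3d (-0.04), Cd3e (-0.003) and Klrd1 (0.22) were not called. Also lower were 2 of 8 erythroid markers (list means 8.79 to 9.14 and 8.35 to 8.65) and 1 of 3 megakaryocyte markers (7.16 to 7.33 and 6.47 to 6.64). All 9 granulocyte and monocyte markers were higher (7.10 to 7.40 in flox/flox and 9.50 to 9.86 in Mx1Cre). The part of these shifts in the results below was not tested, and in sorted cells measured in bulk, fewer cells of a type and less RNA per cell cannot be told apart.

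Few respiratory chain genes passed the test between the genotypes. A single one of the 81, Uqcrq of complex III, was called higher in the arrays labelled Mx1Cre at an adjusted p under 0.05 (limma, Benjamini-Hochberg over all genes), and 0 were called lower. That is 1.23% of the genes, where 4.91% of all 19937 genes were called, 2.63% higher and 2.28% lower. Among the 4984 genes above the upper quartile of level (8.07 log2 units), where 74 of the 81 lay, 8.87% were called. Before adjustment, 7 of the 81 had a higher level at p under 0.05 (limma) and 0 a lower level. The share higher was 8.64%, against 8.32% of all genes and 13.8% of those above the upper quartile. The shares lower were 8.12% of all genes and 13.8% of those above the upper quartile.

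The differences, Mx1Cre minus flox/flox, ran from -0.18 for Ndufa6 to 0.45 for Uqcr11 on the log2 scale. Their median was 0.08, beside -0.01 over all genes. The sign was positive for 69 of the 81 genes (85.2%, against 46.6% of all genes). The 95% interval stayed within 0.5 log2 units (1.41-fold) on either side of 0 for 73 of the 81 genes and within 1 log2 unit for 81. The groups did not overlap for 11 genes, with Mx1Cre higher in each (13.6%, against 10.5% of all genes and 17.4% of those above the upper quartile). They were Uqcrq, Uqcr11, Ndufb8, Ndufs6, Sdhc, Cox4i1, Cox4i2, Cox5b, Cox6c, Atp5o and Atp5l. With Mx1Cre lower there were 0, against 11% of all genes and 17.9% of those above the upper quartile. With fewer arrays groups overlap less often for any gene, so each such count is given with the share of all genes in the same setting. Without Mx1Cre replicate 1 there were 34 members with Mx1Cre higher (42%, against 16.7% of all genes and 27.3% of those above the upper quartile). In that fit 1 was lower, against 19.3% of all genes and 19.7% of those above the upper quartile. Without flox/flox replicate 2 there were 34 higher (42%, against 15.2% and 22.4%) and 0 lower (against 15.8% and 24.9%). Without flox/flox replicate 3 there were 18 higher (22.2%, against 14.4% and 24%) and 0 lower (against 17.4% and 19.2%). Leaving out each of the other 3 arrays gave 12 to 14 higher (14.8% to 17.3%, against 14.1% to 14.4% of all genes). Among genes above the upper quartile the share was 18.6% to 20.3%, above that of the members in each of these fits. Members apart in the lower direction numbered 3 when flox/flox replicate 1 was dropped (against 14.8% of all genes and 23.6% of those above the upper quartile). They numbered 2 when Mx1Cre replicate 3 was dropped (against 14.3% and 21.6%), and 0 in the remaining fit (against 16% and 24.8%). Cyclic loess gave 19 higher (23.5%, against 12% and 19.6%) and 1 lower (against 11.4% and 19.2%). Median centring gave 8 higher (9.88%, against 9.57% and 14.6%) and 0 lower (against 11% and 16%).

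**Figure D1:**
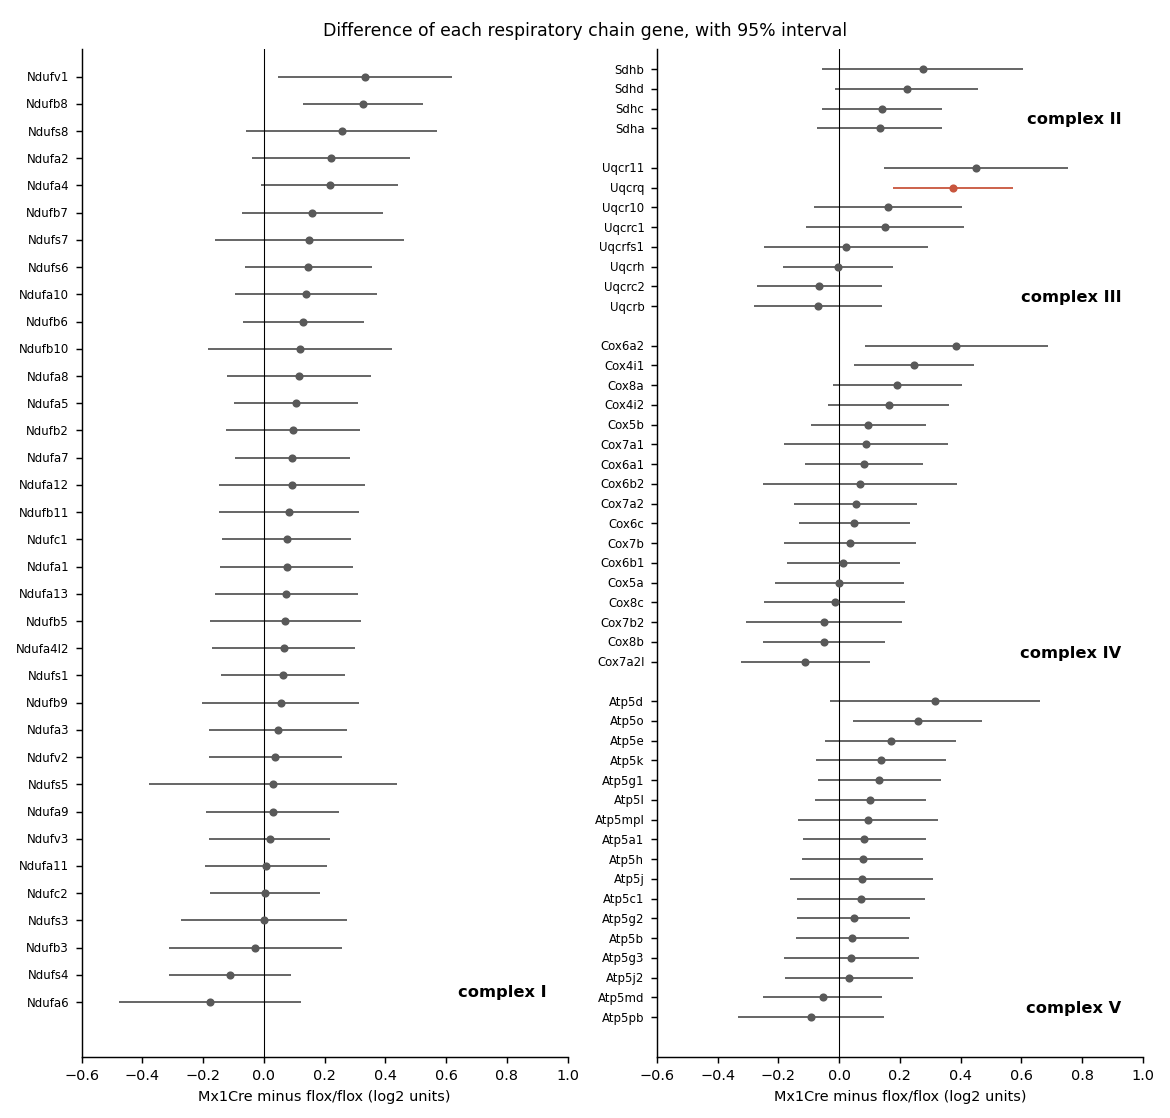
Difference in log2 expression (x axis, Mx1Cre minus flox/flox, 3 arrays each) of the 81 respiratory chain genes by complex, with 95% intervals from limma. Uqcrq, in red, passed at an adjusted p under 0.05, and 69 of the 81 points lie to the right of 0.

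Complex III held the gene that was called and the largest difference of the 81. Its core subunits are the processing peptidase homologues Uqcrc1 and Uqcrc2 and the Rieske iron-sulphur protein Uqcrfs1, and Uqcrb, Uqcrh, Uqcrq, Uqcr10 and Uqcr11 are small subunits around them. Uqcrq, which encodes the ubiquinone-binding small subunit also called subunit VII, read 9.80, 10.001 and 9.93 log2 units in flox/flox replicates 1, 2 and 3, and 10.26, 10.26 and 10.33 in the Mx1Cre replicates. All 3 Mx1Cre arrays lay above all 3 flox/flox arrays, and they spread less. The rise was 0.37 ± 0.09 log2 units (SE), or 1.30-fold, with an adjusted p of 0.0409 (limma), from 9.91 ± 0.10 to 10.3 ± 0.04 (SD, n = 3 each). Uqcrq ranked 856th of 19937 genes by p. By exact permutation of its 6 values (two-sided) p was 0.1, and no smaller p can be had from 20 regroupings. The call did not hold in any of the 6 fits that left out 1 array, where the difference ran from 0.32 (without flox/flox replicate 1, adjusted p = 0.146) to 0.42 (without flox/flox replicate 2, adjusted p = 0.0530). It was also lost when all 34760 probe sets were fitted (adjusted p = 0.147).

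Uqcr11, the smallest of the small subunits and read by 2 probe sets, differed more but spread more. Its brighter probe set read 8.81, 9.07 and 9.15 in flox/flox and 9.17, 9.62 and 9.58 in Mx1Cre, so that Mx1Cre replicate 1 lay just above the highest flox/flox array. The difference was 0.45 ± 0.14 log2 units (SE) with an adjusted p of 0.104 (limma), and the other probe set gave 0.43. It passed without Mx1Cre replicate 1 (0.59, adjusted p = 0.0251), with cyclic loess (0.0480) and with array weights (0.0287). The other small subunits did not show this, with 0.16 for Uqcr10, -0.003 for Uqcrh and -0.07 for Uqcrb. Uqcrh, the hinge protein that contacts cytochrome c1, was nearly flat, at 12.29, 12.32 and 12.31 in flox/flox and 12.26, 12.34 and 12.31 in Mx1Cre. The core subunits were not called either. Uqcrc1 differed by 0.15 log2 units, Uqcrfs1 by 0.02 and Uqcrc2 by -0.07, each with a 95% interval within 0.5 log2 units of 0. Over the 8 genes of complex III the median was 0.09, and 0.02 without flox/flox replicate 1.

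**Figure D2:**
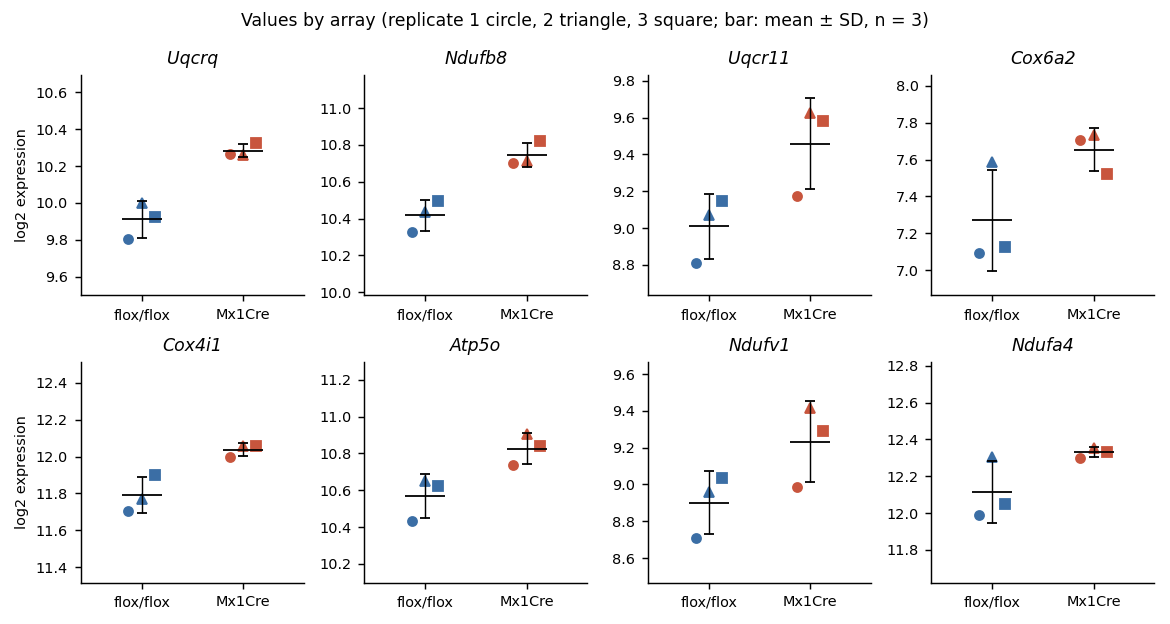
Log2 expression (y axis, each panel spanning the same range of log2 units) on the 6 arrays for the 8 respiratory chain genes of smallest p, flox/flox in blue and Mx1Cre in red, with mean ± SD. The groups are apart for Uqcrq, Ndufb8, Uqcr11, Cox4i1 and Atp5o and overlap for Cox6a2, Ndufv1 and Ndufa4.

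Complex I, NADH dehydrogenase, had 0 of 35 genes called (4.91% of all genes were). At an unadjusted p under 0.05 (limma), 2 were higher and 0 lower. The share higher was 5.71%, against 8.32% of all genes and 13.8% of those above the upper quartile. Ndufb8, an accessory subunit of the membrane arm, came closest. It read 10.33, 10.43 and 10.49 in flox/flox and 10.70, 10.71 and 10.82 in Mx1Cre, with the groups apart by more than the range within either. The difference was 0.33 ± 0.09 log2 units (SE, adjusted p = 0.0712, limma). It passed with cyclic loess (0.0417), among genes above the median level (0.0389), with an intensity trend and a robust prior (0.0276) and with array weights (0.0311). Its adjusted p ran from 0.0276 to 0.305 over all alternatives.

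The core subunits of complex I carry the flavin and the iron-sulphur clusters and bind ubiquinone. Ndufv1, which binds NADH and the flavin, read 8.71, 8.96 and 9.03 in flox/flox and 8.99, 9.42 and 9.29 in Mx1Cre. Mx1Cre replicate 1 fell inside the flox/flox range, and the difference of 0.33 did not pass (adjusted p = 0.221, limma). The other core subunits measured gave 0.26 for Ndufs8, 0.15 for Ndufs7, 0.06 for Ndufs1, 0.04 for Ndufv2 and 0.001 for Ndufs3. So the sign was positive in 6 of 6, with a median of 0.11, but Ndufs3 was level and its probe sets differed in sign. The 29 accessory subunits had a median of 0.07 and a positive sign in 26. At the low end stood Ndufa6, a subunit at the foot of the peripheral arm, with 10.27, 10.63 and 10.23 in flox/flox and 9.98, 10.36 and 10.25 in Mx1Cre. Its difference of -0.18 lay well within the spread (95% interval -0.48 to 0.12). Ndufs4, whose loss in mice is a model of Leigh syndrome, differed by -0.11 and Ndufb3 by -0.03. Ndufs5 had the widest spread of the 81 in Mx1Cre (9.65 ± 0.41, SD, n = 3), with 9.22 in replicate 1 and 10.04 in replicate 2. Ndufa2 and Ndufa4 differed by 0.22 each. Ndufa4 keeps its complex I symbol although the protein is now known as a subunit of complex IV. Its relative Ndufa4l2, which hypoxia induces in many cells, stood at a dim 6.01 and differed by 0.06.

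Complex II, succinate dehydrogenase, is the one complex with no subunit from mitochondrial DNA, and it also works in the tricarboxylic acid cycle. Of its 4 genes 0 were called (4.91% of all genes were), and 0 had an unadjusted p under 0.05 (limma). At that p 8.32% of all genes were higher and 8.12% lower, so counts of 0 among 4 genes say little. The sign was positive in all 4 under each alternative that gave a median. Sdhb, the iron-sulphur subunit, read 9.38, 10.0045 and 9.85 in flox/flox and 9.89, 10.12 and 10.05 in Mx1Cre. Flox/flox replicate 1 was low, replicate 3 lay just below the lowest Mx1Cre array and replicate 2 lay inside the Mx1Cre range. The difference was 0.27 ± 0.15 log2 units (SE, adjusted p = 0.422, limma). Sdhd, a membrane anchor, differed by 0.22, Sdhc, the other anchor, by 0.14 and Sdha, the flavoprotein, by 0.13. Sdhc was the member whose groups did not overlap, at 10.76, 10.72 and 10.79 against 10.84, 11.02 and 10.84. The median of the 4 was 0.18, and it fell to 0.11 without flox/flox replicate 1.

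In complex IV, cytochrome c oxidase, 0 of 17 genes were called (4.91% of all genes were). Before adjustment, 2 were higher and 0 lower at p under 0.05 (limma). The share higher was 11.8%, against 8.32% of all genes and 13.8% of those above the upper quartile. The nuclear subunits surround a catalytic core made in the mitochondrion, and several come in a common isoform and a tissue-restricted one. Cox4i1, the common isoform of subunit 4, read 11.71, 11.77 and 11.90 in flox/flox and 12.00, 12.06 and 12.06 in Mx1Cre. The groups were apart, and the difference of 0.25 ± 0.09 log2 units (SE) had an adjusted p of 0.183 (limma). It passed only with an intensity trend and a robust prior (adjusted p = 0.0460, the lowest over its alternatives). Its partner Cox4i2, known from lung, was near the median level of all genes and differed by 0.16 (6.55, 6.38 and 6.38 against 6.65, 6.58 and 6.56).

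Cox6a2, the heart and skeletal muscle isoform of subunit 6a, had the largest difference of complex IV. It read 7.09, 7.59 and 7.13 in flox/flox and 7.71, 7.73 and 7.52 in Mx1Cre. Flox/flox replicate 2 reached above Mx1Cre replicate 3, and the difference of 0.39 did not pass (adjusted p = 0.167, limma). Without flox/flox replicate 2 it was 0.54 and passed (adjusted p = 0.0262). The common isoform Cox6a1 differed by 0.08. The other muscle isoforms were dim and near 0, with 0.09 for Cox7a1 at a mean level of 6.60 and -0.05 for Cox8b at 5.85. The testis isoforms Cox7b2 and Cox8c, at 4.28 and 6.51, differed by -0.05 and -0.01. Cox6b2, known as a testis isoform of subunit 6b, was listed at 10.4 and differed by 0.07, beside 0.01 for the common Cox6b1. Whether its probes also read a similar transcript was not tested. Among the other common subunits Cox5a differed by 0.001, Cox7b by 0.03, and Cox6c and Cox7a2 by 0.05 each. Cox8a differed by 0.19 and Cox5b by 0.10. Cox7a2l, which takes part in joining complexes III and IV, had the lowest difference of the complex, at -0.11, with a 95% interval of -0.33 to 0.10.

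Complex V, the ATP synthase, had 0 of 17 genes called (4.91% of all genes were). Before adjustment, 1 was higher and 0 lower at p under 0.05 (limma). The share higher was 5.88%, against 8.32% of all genes and 13.8% of those above the upper quartile. Its F1 head makes ATP, its ring of c subunits turns as protons pass, and a peripheral stalk holds the head still. In the head, Atp5d, the δ subunit of the central stalk, differed by 0.31 but ranged from 9.10 to 9.60 in flox/flox and from 9.47 to 9.97 in Mx1Cre (adjusted p = 0.363, limma). The catalytic β subunit Atp5b differed by 0.04 (95% interval -0.14 to 0.23), the α subunit Atp5a1 by 0.08 and the γ subunit Atp5c1 by 0.07. Atp5e, the ε subunit, differed by 0.17. Atp5o, which links the peripheral stalk to the head, had the smallest p of the complex. It read 10.43, 10.65 and 10.62 in flox/flox and 10.74, 10.90 and 10.84 in Mx1Cre, a difference of 0.26 ± 0.10 log2 units (SE, adjusted p = 0.1996, limma). The groups were apart by less than the range within flox/flox. Atp5pb, also of the peripheral stalk, and Atp5md, a small membrane subunit, had the lowest differences, at -0.09 and -0.05. The genes of the c subunit, Atp5g1, Atp5g2 and Atp5g3, encode the same mature protein behind different import sequences. They differed by 0.13, 0.05 and 0.04.

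The 16 genes that several probe sets read gave a check within the arrays. The sign differed between probe sets of 6 of them, namely Atp5l, Atp5md, Atp5pb, Ndufa11, Ndufs3 and Uqcrb. The differences of these genes' probe sets lay between -0.13 and 0.40. Uqcr11 (0.45 and 0.43) and Cox7b (0.03 and 0.04) gave close values. Atp5g1 did not, with 0.13 from the brighter probe set and 0.53 from the other, which read 8.65 on average in flox/flox and 9.17 in Mx1Cre. In Atp5l, 5 probe sets gave values from -0.13 to 0.40, and in Atp5g2, 3 gave 0.05 to 0.35. With all probe sets fitted, 0 of the 104 member probe sets passed, where 0.869% of all probe sets did (limma). At an unadjusted p under 0.05 (limma), 10 were higher and 0 lower, and the share of all probe sets at that p is not given here. Respiratory chain genes are known for processed copies in the genome, and which probe sets also read a copy was not tested.

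**Figure D3:**
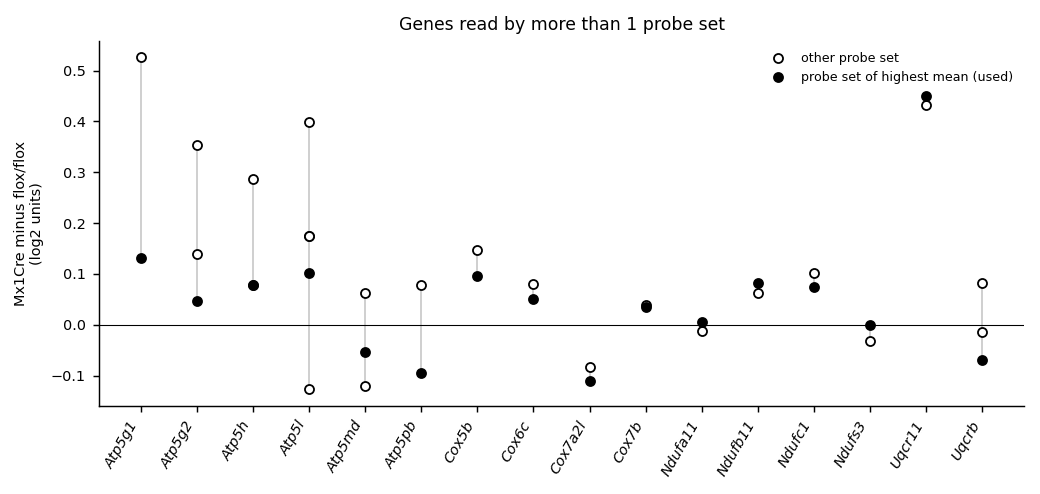
Difference in log2 expression (y axis, Mx1Cre minus flox/flox, 3 arrays each) for every probe set of the 16 genes with more than 1. Filled points are the probe set of highest mean, and the open points of Atp5g1, Atp5g2, Atp5h and Atp5l reach furthest from it. The far point of Atp5h (0.29) is a dim probe set, at 3.32 log2 units, where the lower quartile of all genes is 5.63.

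Arrays of 1 genotype differed in the level of the respiratory chain genes. The median of the 81 genes was 10.74, 10.93 and 10.79 log2 units in flox/flox replicates 1, 2 and 3 and 10.84, 10.93 and 10.88 in the Mx1Cre replicates. Replicate 1 was lowest and replicate 2 highest in both groups, and the groups overlapped. Flox/flox replicate 1 held the lowest flox/flox value for 59 of the 81 genes (72.8%, against 33.03% of all genes and 49.3% of those above the upper quartile). Mx1Cre replicate 1 held the lowest Mx1Cre value for 61 (75.3%, against 37.3% and 62.5%). The median over all genes ran from 6.61 to 6.67 on the 6 arrays, but RMA normalization holds it nearly equal. For genes above the upper quartile, the median deviation from the gene means was -0.03, 0.005 and 0.03 on flox/flox replicates 1, 2 and 3. On the Mx1Cre replicates it was -0.06, 0.05 and 0.02. For the 81 genes it was -0.13, 0.05 and -0.05 in flox/flox and -0.03, 0.09 and 0.06 in Mx1Cre. So brighter genes in general were also lowest on replicate 1 of each group. The array medians of the 81 genes averaged 10.82 ± 0.10 in flox/flox and 10.88 ± 0.05 in Mx1Cre (SD, n = 3 each). The shift between genotypes was thus smaller than the SD within flox/flox.

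The median difference and the count of positive signs varied with the arrays kept. Without flox/flox replicate 1 the median difference of the 81 genes fell from 0.08 to 0.04, with 57 positive and 24 negative. Without Mx1Cre replicate 2 it was 0.05 (60 and 21), without flox/flox replicate 2 0.12 (74 and 7) and without Mx1Cre replicate 1 0.12 (70 and 11). By complex, the array furthest from the others was flox/flox replicate 1 in complex II (a median deviation from the gene means of -0.23) and in complex I (-0.16). Members spread more within flox/flox (median SD 0.12) than within Mx1Cre (0.08), and 57 of the 81 had the larger SD in flox/flox. Among all genes above the upper quartile, 53.4% did.

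**Figure D4:**
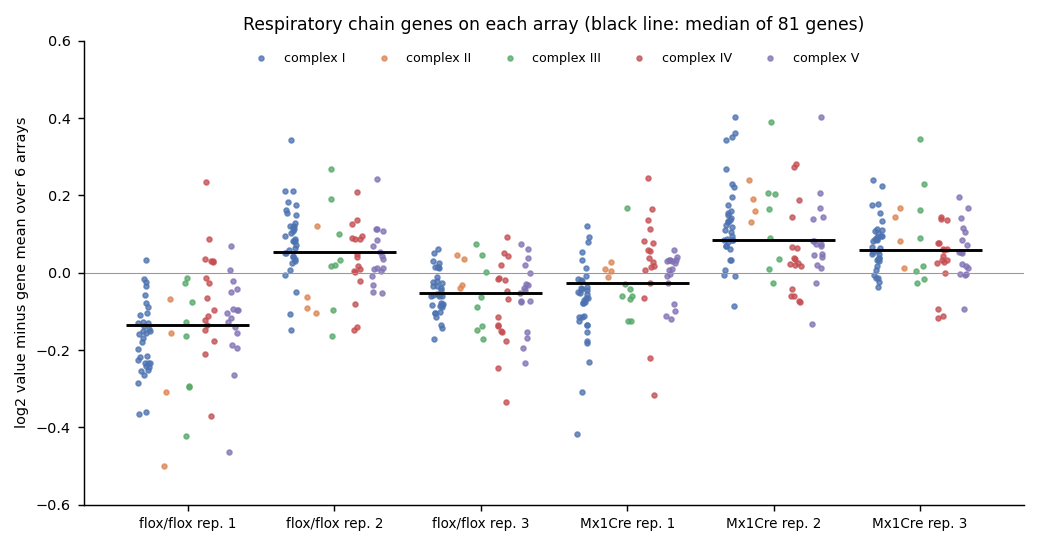
Deviation of each of the 81 genes from its mean over 6 arrays (y axis, log2 units) on each array, coloured by complex, with the median as a black line. The medians run from -0.13 on flox/flox replicate 1 to 0.09 on Mx1Cre replicate 2, and replicate 1 is the lowest of its group in both genotypes.

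The factors NRF1, GABP (an ETS family factor) and YY1 are known regulators of many respiratory genes, and the letters of their motifs were looked for near the members' starts. RefSeq promoter windows of the GRCm38.p6 build, 250 bases before to 50 after each start, were matched by symbol for 66 of the 81 genes, which gave 71 windows. Uqcrq, the gene called, had no window and is outside these counts. The letters CATGCGC, part of the NRF1 motif, stood on either strand in 13 of the 71 windows (18.3%, against 5.08% of the 19176 windows of genes measured here and 3.91% of all 32851). The ETS letters CCGGAAG were in 17 (23.9%, against 12.1% and 8.86%) and the YY1 letters AAGATGGC in 10 (14.1%, against 3.18% and 2.75%). For the C/EBP family, to which the product of Cebpa belongs, TTGCNNAA was in 9 (12.7%, against 9.75% and 10.8%). Each motif was counted on its own, and matches of different motifs may overlap. GC content was the same in the members' windows as in those of all genes measured (median 57.3%). Of the same 71 windows, 22 (31.0%, against 13.3% of those of genes measured) had another gene's start within 1000 bases on the other strand, pointing away. Some of these also held motif letters, and a gene with several starts could count several times. A match of letters is a description of the sequence and shows no binding.

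The sequences show 2 members that came near the threshold (Uqcr11 and Ndufb8), the one of lowest difference (Ndufa6), and Atp5j, a peripheral stalk subunit. Atp5j has 2 starts in the table, and the one shown faces the start of Gabpa, the gene of the DNA-binding subunit of GABP. The window of its other start held none of the motifs searched and faced no other gene's start within 1000 bases. They were chosen after their values were seen. Each runs 5′ to 3′ along the gene's strand, from 120 bases before the start to the first 20 bases of the transcript, with matches to the NRF1, ETS and YY1 letters in capitals. The positions are chr10:80406802-80406941, chr19:44555423-44555562, chr15:82354272-82354411 and chr16:84834957-84835096, in that order, and the gene's strand is the minus strand in each.
Uqcr11: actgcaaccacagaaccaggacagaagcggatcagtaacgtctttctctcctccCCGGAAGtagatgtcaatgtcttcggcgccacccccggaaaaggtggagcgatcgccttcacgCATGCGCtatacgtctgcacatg
Ndufb8: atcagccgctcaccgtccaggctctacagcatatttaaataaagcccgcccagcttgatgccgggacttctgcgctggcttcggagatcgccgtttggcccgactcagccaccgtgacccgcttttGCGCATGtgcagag
Ndufa6: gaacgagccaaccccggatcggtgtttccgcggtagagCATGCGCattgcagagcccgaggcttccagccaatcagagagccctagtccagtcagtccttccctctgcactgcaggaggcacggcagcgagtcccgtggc
Atp5j: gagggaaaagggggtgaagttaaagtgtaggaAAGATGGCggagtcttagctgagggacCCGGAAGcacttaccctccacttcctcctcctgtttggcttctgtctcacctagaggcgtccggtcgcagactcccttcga

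The NRF1 letters stood in Uqcr11 and Ndufb8 and also in Ndufa6, whose difference had the other sign. Ndufb8 also held the YY1 letters 38 bases after its start, past the stretch shown. Atp5j differed by 0.07 and Gabpa by 0.05 (adjusted p = 0.837 and 0.904, limma). The factor genes themselves were not called, with 0.16 log2 units for Nrf1 and -0.14 for Yy1. Of the other GABP genes, Gabpb2 differed by 0.30 with groups apart (adjusted p = 0.129, limma) and Gabpb1 by -0.14 (adjusted p = 0.505).

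Other mitochondrial genes were read from lists by role. Of 185 genes in 6 lists, 1 was called higher and 0 lower (0.541%, against 4.91% of all genes). Unadjusted p was under 0.05 (limma) for 24 with Mx1Cre higher and for 2 with Mx1Cre lower. The 24 made 12.97%, against 8.32% of all genes and 13.8% of those above the upper quartile, where 143 of the 185 lay. The 2 made 1.08%, against 8.12% and 13.8%. The median difference of the 185 genes was 0.07. Their sign was positive in 133 (71.9%, against 46.6% of all genes and 49.9% of those above the upper quartile). The gene called was Mrpl33, a small protein of the large subunit of the mitochondrial ribosome. It read 9.04, 9.12 and 8.97 in flox/flox and 9.41, 9.37 and 9.54 in Mx1Cre, with the groups well apart. It was 0.40 ± 0.09 log2 units higher (SE, adjusted p = 0.0354, limma), a call lost in each fit without 1 array (0.0551 to 0.152). The 77 mitochondrial ribosomal protein genes had a median of 0.07, the 44 assembly factors 0.05 and the 18 tricarboxylic acid cycle enzymes 0.09. The 25 protein import genes had a median of 0.14 and 21 positive signs. Of these 25, 22 lay above the upper quartile of level. Their groups did not overlap in 10 genes, with Mx1Cre higher (40%, against 10.5% of all genes and 17.4% of those above the upper quartile). The same held for 7 of the 18 tricarboxylic acid cycle genes (38.9%), 16 of which lay above the upper quartile, and 1 was apart in the lower direction. It held for only 8 of the 77 mitochondrial ribosomal protein genes (10.4%) and 4 of the 44 assembly factors (9.09%). Over the 185 genes together, 32 were apart with Mx1Cre higher (17.3%) and 6 with Mx1Cre lower (3.24%). For all genes these shares were 10.5% and 11%, and for those above the upper quartile 17.4% and 17.9%.

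Of the 17 biogenesis regulators and mitochondrial DNA factors 0 were called (4.91% of all genes were), and the median was 0.05. At an unadjusted p under 0.05 (limma), 3 were higher and 0 lower. The share higher was 17.6%, against 8.32% of all genes and 13.8% of those above the upper quartile. The 3 were Gabpb2 (0.30), Pprc1 (0.24) and Polg2 (0.20). The coactivator genes Ppargc1b, Pprc1 and Ppargc1a differed by 0.27, 0.24 and 0.12, and Tfam, which packs and transcribes mitochondrial DNA, by -0.04. The electron carrier gene Cycs (cytochrome c) differed by 0.14. Cyc1, the cytochrome c1 of complex III, and Ndufab1, the acyl carrier subunit of complex I, fall outside the symbol rule and differed by 0.12 and 0.07. Subunits encoded in mitochondrial DNA were not analysed here.

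**Figure D5:**
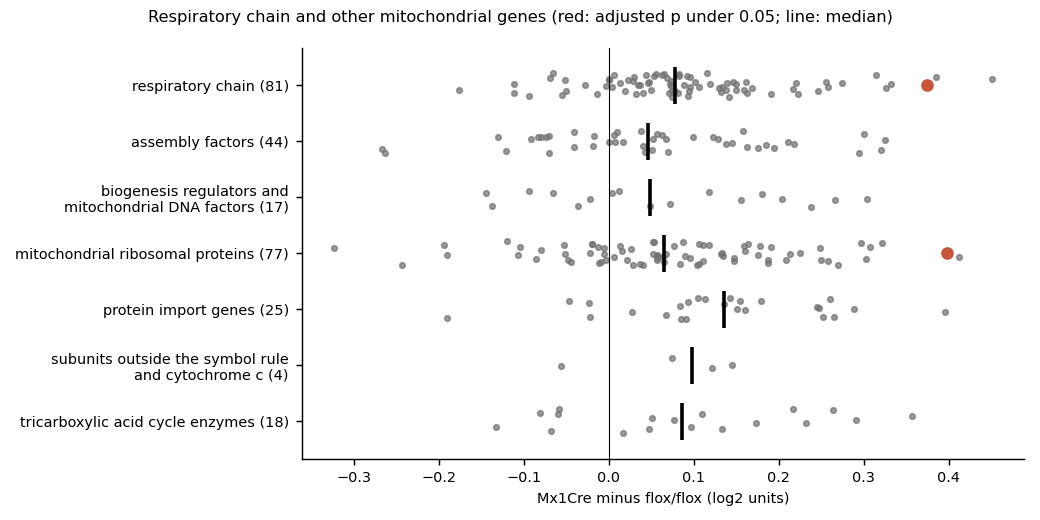
Difference in log2 expression (x axis, Mx1Cre minus flox/flox, 3 arrays each) of the 81 respiratory chain genes and of 185 other mitochondrial genes by list, the number of genes in brackets. Uqcrq and Mrpl33, in red, passed at an adjusted p under 0.05, and the medians, black lines, lie between 0.05 and 0.14.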

How the data were processed

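The deposited values are log2 expression per probe set, made by the authors with RMA and affy per the submitters' processing notes. For versions and the chip definition, the sources used here give nothing. RMA quantile normalizes the arrays and understates folds of dim genes. No detection call was used, and levels of different probe sets are not ranks of transcript abundance.

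A single symbol was annotated for 21640 of 34760 probe sets, 1321 had several and 11799 none here. By Entrez number 21553 were found in the reference gene table, which changed 0 symbols. The probe set of highest mean stood for a gene. Under R 4.3.3, limma 3.58.1 fitted genotype alone to 19937 genes (lmFit, then eBayes) and calls were made at an adjusted p under 0.05. The code was tested on simulated data. The number of arrays limits the precision.

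Members, lists and named genes were chosen with earlier results of these data known. Text names called genes, the extremes of each complex, core subunits, isoforms, c subunit genes, the brightest and dimmest members and those whose probe sets differ in sign. Mean levels ran from 4.28 (Cox7b2) to 12.9 (Cox6b1). Alternatives were the replicate number as a block, each array left out, array weights, centring on medians, 2 filters on level, the mean of a gene's probe sets, cyclic loess, a fit of all probe sets, a robust prior with a trend on intensity, an unmoderated Welch test and other thresholds.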

Additional observations from a re-analysis of the deposited data

How the results depend on the processing

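The count of 1 respiratory chain gene called became 0 with all probe sets fitted, with a plain Welch test or at an adjusted p under 0.01, 2 at an adjusted p under 0.1 or among genes above the median level, and 3 with array weights, cyclic loess or an intensity trend and robust prior. Leaving out 1 array gave 0 to 1. The count of 1 for the other mitochondrial genes became 0 in the first 3 settings, 3 with the trend, 4 with cyclic loess and 5 with array weights, above the median level or at 0.1, and 0 to 1 without 1 array. With the replicate number as a block, 2 respiratory chain genes (Uqcrq, 0.0497, and Uqcr11, 0.0249) and 2 of the others were called. Deviations of same-numbered arrays correlated at 0.19, 0.05 and 0.17 over all genes, 1 of them under 0.1, so the numbers were not taken as pairs. Over the respiratory chain genes alone these were 0.57, 0.26 and 0.18. Mx1Cre replicate 2 correlated more with flox/flox replicate 3 than with its own number, at 0.12 over all genes and 0.32 over the respiratory chain genes. Genes whose groups did not overlap numbered 11, 8 with median centring, 20 with cyclic loess and 12 to 35 without 1 array, and the share of all genes moved with the setting too. No median difference by complex moved by more than the spread between arrays. Of 841 refits of 53 named genes, 779 kept their direction and their side of the threshold, 18 lost it, 10 gained it and 34 changed sign, none of these from or to a called value. Sign changed in Atp5g3 with array weights (-0.0022) and with the mean of probe sets in Ndufa11 (-0.0026) and Ndufs3 (-0.015). The other 31 came from leaving out 1 array, where differences ran from -0.0042 to 0.13 in Atp5c1, -0.022 to 0.10 in Atp5g3, -0.0022 to 0.10 in Atp5j2, -0.19 to 0.0041 in Atp5pb, -0.060 to 0.069 in Cox5a, -0.016 to 0.038 in Cox6b1, -0.055 to 0.24 in Cox6b2, -0.012 to 0.22 in Cox7a1, -0.0098 to 0.11 in Cox7a2, -0.044 to 0.091 in Cox7b, -0.13 to 0.055 in Cox7b2, -0.10 to 0.038 in Cox8c, -0.040 to 0.070 in Ndufa11, -0.087 to 0.11 in Ndufs3, -0.029 to 0.11 in Ndufv2, -0.12 to 0.0091 in Uqcrb and -0.054 to 0.16 in Uqcrfs1. The causes were not tested. The count of all genes changed was 979 of 19937 (4.91%), 538 to 785 without 1 array, 244 with all probe sets fitted, 389 at an adjusted p under 0.01 and 0 with the Welch test (its adjusted p for Uqcrq was 0.355). Whether the arrays labelled with 1 replicate number shared a day or a batch is not stated in the labels.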
